A study of Mus musculus with 6 samples.

Results

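The vertebrate lens is built of fibre cells, which lose their organelles, fill with crystallins and are held together by a specialised plasma membrane and cytoskeleton. The 6 genes described here, Lim2, Bfsp1, Bfsp2, Grifin, Lgsn and Prox1, were chosen by name as genes of the lens fibre other than crystallins, and all 6 were found among the 14008 entries of the deposited table that name a gene. They were measured in RNA from retinal pigment epithelium (RPE), the pigmented cell layer behind the photoreceptors, of male mice of the inbred strain C57BL/6J, 8 to 10 weeks old. The groups were circadian time (CT) 1, with 3 libraries, and CT23, with 3 libraries, and each library pooled 2 RPE samples. CT counts hours from subjective dawn, so CT1 falls just after it and CT23 just before the next. The labels give neither a genotype other than the strain nor a drug for either group. The RPE was isolated after the anterior eye, which holds the lens, had been cut away and the neural retina peeled off.

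Lim2 is an integral membrane protein of fibre cell junctions. Bfsp1 (filensin) and Bfsp2 (phakinin, also called CP49) are intermediate filament proteins that assemble with each other into the beaded filament, a structure known from lens fibres. Grifin is a galectin-related protein of the lens, Lgsn (lengsin) is a lens protein related to glutamine synthetase, and Prox1 is a homeodomain transcription factor that drives fibre elongation and crystallin expression. Prox1 differs from the others in that it is also known from retinal horizontal, amacrine and bipolar cells, from Müller glia and from lymphatic endothelium. Only Lim2, Bfsp1 and Bfsp2 are membrane or beaded filament genes, so the other 3 are described by their own roles.

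Lim2 lies on chromosome 7 (43427670 to 43435996, plus strand), Bfsp1 on chromosome 2 (143826528 to 143863173, minus strand) and Bfsp2 on chromosome 9 (103424924 to 103480420, minus strand). Grifin lies on chromosome 5 (140563119 to 140565071, minus strand), and Lgsn (31176401 to 31204725, plus strand) and Prox1 (190118035 to 190170714, minus strand) on chromosome 1, all in GRCm38 by the GENCODE M21 annotation. Of the genes in the table, antisense genes overlap Bfsp2 and Prox1, and the sources used here do not give the strand setting of the counting. The antisense gene 5830418P13Rik, which covers the 3′ end of Bfsp2, was at 0.889 to 1.44 CPM at CT1 and 1.38 to 1.83 CPM at CT23. CPM (a count scaled to a fixed library total) is the unit of all levels given here.

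The promoters of the members were searched for TGCTGA, the core letters of the element bound by Maf factors, which drive many crystallin genes. The 250 bases before the RefSeq start site (GRCm38.p6) held it on either strand in 3 of the 6 genes, Bfsp1, Lgsn and Lim2, and in 3 of their 7 windows. Among all 32851 such windows 16.1% held it, and 10 of the 15 crystallin windows did. The promoter of each of these 3 genes is printed to show where the letters lie, and that of Grifin as one without them. The sequences are from RefSeq, run 5′ to 3′ on the strand of the gene, and carry TGCTGA or its reverse complement TCAGCA in capitals. A match describes letters and is no evidence of binding.
Lim2 (chr7:43429849-43430098, plus strand): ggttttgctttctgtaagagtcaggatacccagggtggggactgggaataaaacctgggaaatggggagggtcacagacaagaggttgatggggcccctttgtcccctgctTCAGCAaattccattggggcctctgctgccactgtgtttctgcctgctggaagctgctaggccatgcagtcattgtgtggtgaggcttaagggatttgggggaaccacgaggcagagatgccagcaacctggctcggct
Bfsp1 (chr2:143863174-143863423, minus strand): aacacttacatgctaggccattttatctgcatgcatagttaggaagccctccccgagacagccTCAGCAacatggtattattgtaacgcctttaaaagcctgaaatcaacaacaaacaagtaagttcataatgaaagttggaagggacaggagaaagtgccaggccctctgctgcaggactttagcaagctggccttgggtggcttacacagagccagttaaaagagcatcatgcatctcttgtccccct
Lgsn (chr1:31176185-31176434, plus strand): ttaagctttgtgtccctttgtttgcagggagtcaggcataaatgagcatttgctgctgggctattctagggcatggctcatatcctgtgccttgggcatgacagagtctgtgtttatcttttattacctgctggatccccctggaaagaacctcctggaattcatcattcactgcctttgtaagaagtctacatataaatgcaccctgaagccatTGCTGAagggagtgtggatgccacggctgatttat
Grifin (chr5:140565068-140565317, minus strand): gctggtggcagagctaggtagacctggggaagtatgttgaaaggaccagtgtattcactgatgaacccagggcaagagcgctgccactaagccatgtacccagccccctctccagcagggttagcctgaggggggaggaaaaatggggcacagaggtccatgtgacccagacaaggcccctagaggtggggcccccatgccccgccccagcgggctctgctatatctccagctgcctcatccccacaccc
The RefSeq starts of Lim2, Bfsp2, Lgsn and Grifin, and a start of Prox1, lie inside their GENCODE gene models. Starts other than those of RefSeq were not searched. The Lgsn window runs past the GENCODE start of Lgsn (31176401), and the Lgsn match spans that start. The match begins 139 bases before the start site in Lim2, 187 in Bfsp1 and 35 in Lgsn. Other motifs searched on both strands were TATAAA, found in Lgsn and Prox1 and in 12.4% of all windows, ACAAT, the core of SOX sites, found in Bfsp1 and Lim2 and in 27.7%, and the heat shock element GAANNTTC, found in 0 members and in 6.69%. Some ACAAT and TGCTGA matches share a window (Bfsp1 and Lim2) without overlapping.

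Reads came from the 3′ ends of transcripts, and library totals were 12612330 to 13651486, of which the genes of the table took 12.7% to 32.3%. RPE markers were present in every library, with 12 of 12 above 0 and a summed level of 1310 to 1722 CPM at CT1 and 1054 to 1349 CPM at CT23. Crystallins differed more between libraries than any marker list of another cell type did. The 15 crystallins in the table summed to 2329, 14818 and 19281 CPM in CT1 replicates 1, 2 and 3, and to 197580, 179675 and 23359 CPM in CT23 replicates 1, 2 and 3. CT23 replicates 1 and 2 thus stood apart, with 19.8% and 18.0% of their totals in crystallins, against 2.34% in CT23 replicate 3. The folds of the members and of the other lens lists are given with and without them. In bulk libraries such as these, fewer cells of a type and less RNA per cell cannot be told apart.

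The study set CT1 against CT23 to find RPE transcripts that differ across subjective dawn. All 6 members were lower at CT1, with a median log2 fold of -2.40, against -0.014 over all 11342 genes tested (limma on log2(CPM + 1), CT1 minus CT23). None of them passed, since no gene of the table did at a limma adjusted p of 0.05 (0% of 11342 genes). At an unadjusted limma p under 0.05 all 6 members were lower, where 1404 genes, or 12.4% of those tested, were. In 5 of the 6, Lgsn being the exception, every CT1 library lay below every CT23 library, which held for 16.3% of genes tested. A log2 fold of -1 or lower was found in 5 of the 6, all but Prox1, and in 0.317% of genes tested.

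Lim2, the junctional membrane protein, was at 7.48, 26.2 and 25.8 CPM in CT1 replicates 1, 2 and 3, and at 218, 102 and 33.4 CPM in CT23 replicates 1, 2 and 3. The times did not overlap, but CT23 replicate 3 lay nearer to CT1 replicates 2 and 3 than to the other CT23 libraries. The means were 19.9 ± 10.7 CPM at CT1 and 118 ± 93.3 CPM at CT23 (SD, n = 3 each), with a log2 fold of -2.32 (SE 0.678, limma adjusted p = 0.121).

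Bfsp1, the larger beaded filament protein, was at 18.6, 105 and 157 CPM in CT1 replicates 1, 2 and 3, and at 1064, 891 and 161 CPM in CT23 replicates 1, 2 and 3. CT1 replicate 3 and CT23 replicate 3 were almost level, with 2115 and 2195 reads. The means were 93.4 ± 69.7 CPM at CT1 and 705 ± 479 CPM at CT23 (SD, n = 3 each), with a log2 fold of -2.96 (SE 0.898, limma adjusted p = 0.127).

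Bfsp2, its assembly partner, was at 7.48, 17.4 and 26.3 CPM in CT1 replicates 1, 2 and 3, and at 98.5, 64.8 and 28.6 CPM in CT23 replicates 1, 2 and 3. Its libraries ranked as those of Bfsp1 did, with a smaller span: the highest was 13.2 times the lowest for Bfsp2 and 57.3 times for Bfsp1. The means were 17.1 ± 9.41 CPM at CT1 and 64.0 ± 35.0 CPM at CT23 (SD, n = 3 each), with a log2 fold of -1.83 (SE 0.509, limma adjusted p = 0.113).

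Grifin, the galectin-related protein, was at 4.31, 25.4 and 15.5 CPM in CT1 replicates 1, 2 and 3, and at 183, 151 and 29.1 CPM in CT23 replicates 1, 2 and 3. The gap between CT23 replicate 3 and CT1 replicate 2 was small, and CT1 replicate 2 was above CT1 replicate 3, unlike in the beaded filament genes. The means were 15.1 ± 10.5 CPM at CT1 and 121 ± 81.0 CPM at CT23 (SD, n = 3 each), with a log2 fold of -2.84 (SE 0.761, limma adjusted p = 0.107).

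Lgsn, the lengsin gene, was at 4.91, 32.2 and 51.4 CPM in CT1 replicates 1, 2 and 3, and at 308, 182 and 29.8 CPM in CT23 replicates 1, 2 and 3. The times overlapped, because CT23 replicate 3 lay below CT1 replicates 2 and 3. The means were 29.5 ± 23.4 CPM at CT1 and 173 ± 139 CPM at CT23 (SD, n = 3 each), with a log2 fold of -2.47 (SE 0.983, limma adjusted p = 0.199).

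Prox1, the transcription factor, was at 15.9, 16.8 and 10.9 CPM in CT1 replicates 1, 2 and 3, and at 28.2, 22.7 and 23.2 CPM in CT23 replicates 1, 2 and 3. The times did not overlap, and the 3 CT23 libraries were close to each other, with no split between CT23 replicate 3 and the other CT23 libraries. The means were 14.5 ± 3.18 CPM at CT1 and 24.7 ± 3.04 CPM at CT23 (SD, n = 3 each), with a log2 fold of -0.74 (SE 0.166, limma adjusted p = 0.0782). The authors' deposited table gave Prox1 a p-value of 0.0410 and the other 5 members p-values of 0.161 to 0.265. Its antisense neighbours Prox1os and Gm28172, which overlap its 5′ part and not its 3′ end, were at 0.592 to 1.03 and 0.831 to 1.04 CPM at CT1 and at 1.84 to 3.74 and 1.17 to 2.49 CPM at CT23.

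**Figure D1:**
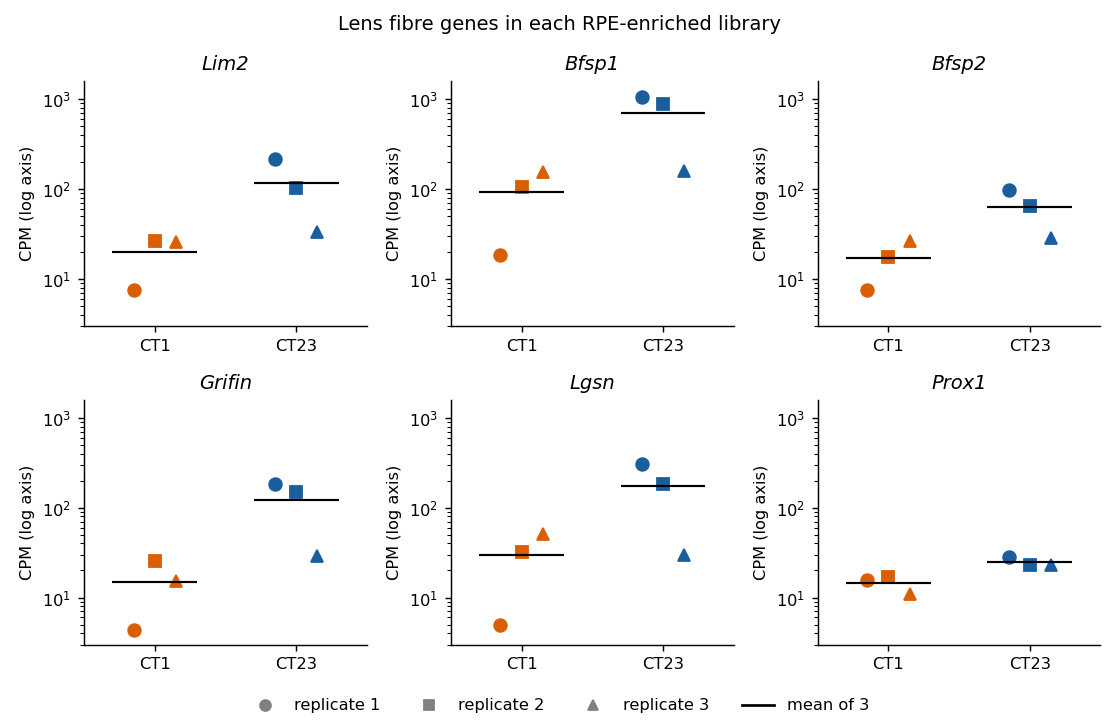
CPM of the 6 members in each library, on a log axis, with CT1 left of CT23. Each symbol is 1 library and the line is the mean of 3. In Lim2, Bfsp1, Bfsp2, Grifin and Lgsn, CT1 replicate 1 is lowest and CT23 replicates 1 and 2 are highest, while Prox1 spans 10.9 to 28.2 CPM over all 6 libraries.

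Libraries of the same time differed widely in these genes. The SE of the log2 fold, which limma draws toward the trend over all genes, lay between 0.509 and 0.983 in the 5 members other than Prox1. The median over all genes tested was 0.141, and only 9 to 29 of the 11342 genes had a larger SE than each of these 5. Only 12 to 20 genes had a lower fold than each of these 5. Prox1 combined a fold that 94 genes exceeded in the lower direction with an SE that 3424 genes exceeded.

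Which members were called depended on the count model and the scaling. The quasi-likelihood test of edgeR, run on whole reads worked back from CPM, called 0 members and 0% of genes, with adjusted p between 0.0915 and 0.171 for the members. All 6 were lower at an unadjusted edgeR p under 0.05, where 11.3% of genes were. DESeq2 called Prox1 (adjusted p = 0.0329) and no other member, where it called 1.5% of the 5405 genes with an adjusted p lower at CT1. With crystallin reads taken out of the library totals, limma called 5 members lower, all but Lgsn, with adjusted p from 0.0350 to 0.0429 for those 5. It called 3.11% of all genes lower, and of its 360 calls 353 were lower and 7 higher. Under that scaling all genes had a median log2 fold of -0.17. The members' folds, Prox1 at -0.93 among them, are to be read relative to that median. The test was still against a fold of 0, so the calls include this shift. With TMM factors, a scaling by trimmed means, limma called 0 members and 0 genes.

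With CT23 replicates 1 and 2 left out, CT23 had 1 library, which is assumed to vary as the CT1 libraries do. The median log2 fold of the members was -0.89 in place of -2.40. The folds were then -0.90 for Lim2, -1.23 for Bfsp1, -0.87 for Bfsp2, -1.19 for Grifin and -0.50 for Lgsn (limma adjusted p between 0.683 and 0.906). Prox1 moved least, to -0.66 (limma adjusted p = 0.588). At an unadjusted limma p under 0.05 Prox1 was the only member lower, where 3.96% of genes tested were. Without CT1 replicate 1, in which the other 5 members were lowest, their folds were -2.18 for Grifin, -2.05 for Bfsp1, -1.76 for Lim2, -1.53 for Lgsn and -1.37 for Bfsp2, and that of Prox1 was -0.81.

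**Figure D2:**
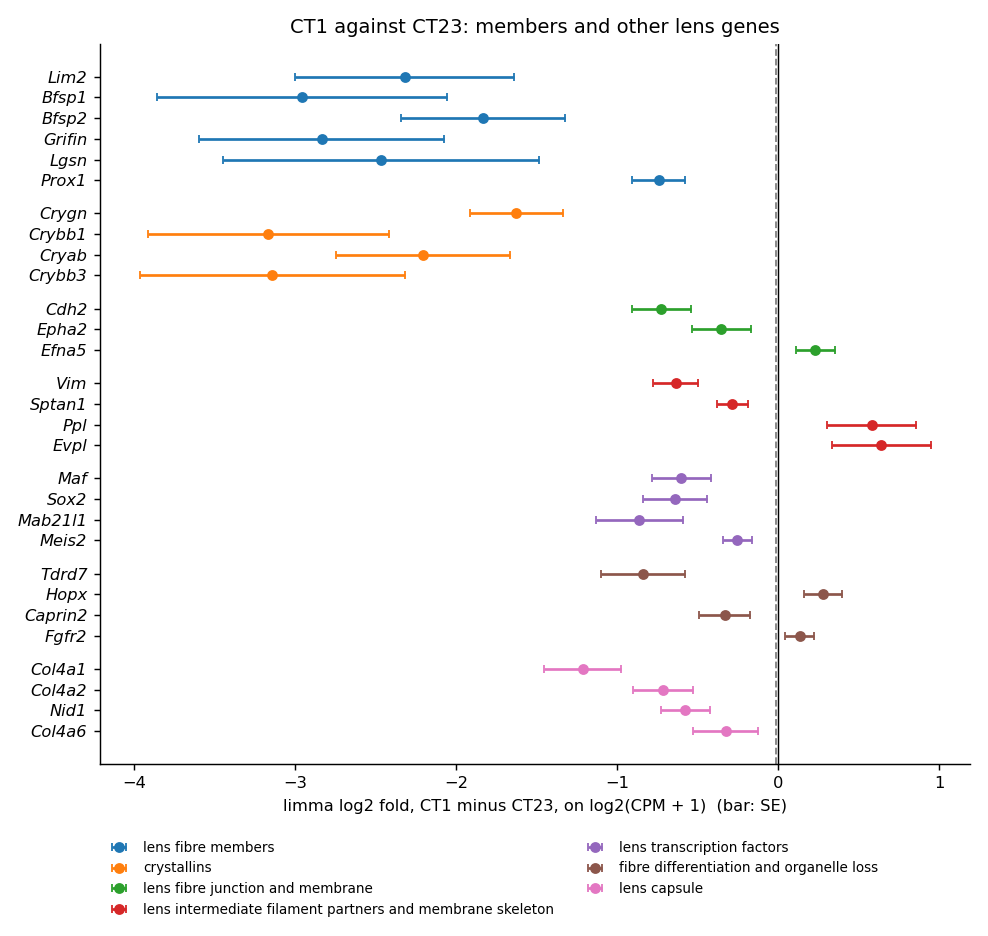
Limma log2 folds, CT1 minus CT23, on log2(CPM + 1), with SE bars, for the 6 members and 3 or 4 genes of each other lens list. The solid line is 0 and the dashed line the median over all genes tested, -0.014. Of the members Prox1 lies nearest to 0, at -0.74, and Bfsp1 farthest from it, at -2.96.

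Set against the crystallin reads of the same library, the members did not all behave alike. Bfsp1 had 7.98, 7.09 and 8.12 reads per 1000 crystallin reads in CT1 replicates 1, 2 and 3, and 5.39, 4.96 and 6.89 in CT23 replicates 1, 2 and 3. Its highest ratio was 1.64 times the lowest, where its CPM spanned 57.3 times. Grifin ranged from 0.803 to 1.85 reads per 1000 at CT1 and 0.840 to 1.25 at CT23, and Lgsn from 2.11 to 2.67 at CT1 and 1.01 to 1.56 at CT23. These spans of 2.30 and 2.63 times compare with 42.4 and 62.7 times in CPM.

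Lim2 and Bfsp2 varied more against the crystallins. Lim2 had 3.21, 1.77 and 1.34 reads per 1000 crystallin reads in CT1 replicates 1, 2 and 3, and 1.10, 0.568 and 1.43 in CT23 replicates 1, 2 and 3. Bfsp2 had 3.21, 1.18 and 1.36 in CT1 replicates 1, 2 and 3, and 0.499, 0.360 and 1.22 in CT23 replicates 1, 2 and 3. Both were highest in the library poorest in crystallins, CT1 replicate 1, and lowest in CT23 replicate 2. Prox1 had 6.81, 1.13 and 0.565 in CT1 replicates 1, 2 and 3, and 0.143, 0.127 and 0.992 in CT23 replicates 1, 2 and 3. Its ratio thus spanned 53.8 times while its CPM spanned 2.59 times. Single crystallins themselves spanned 1.63 (Crygb) to 13.9 times (Crygn) on this measure. All ratios share the crystallin count of their library and are given without a test.

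**Figure D3:**
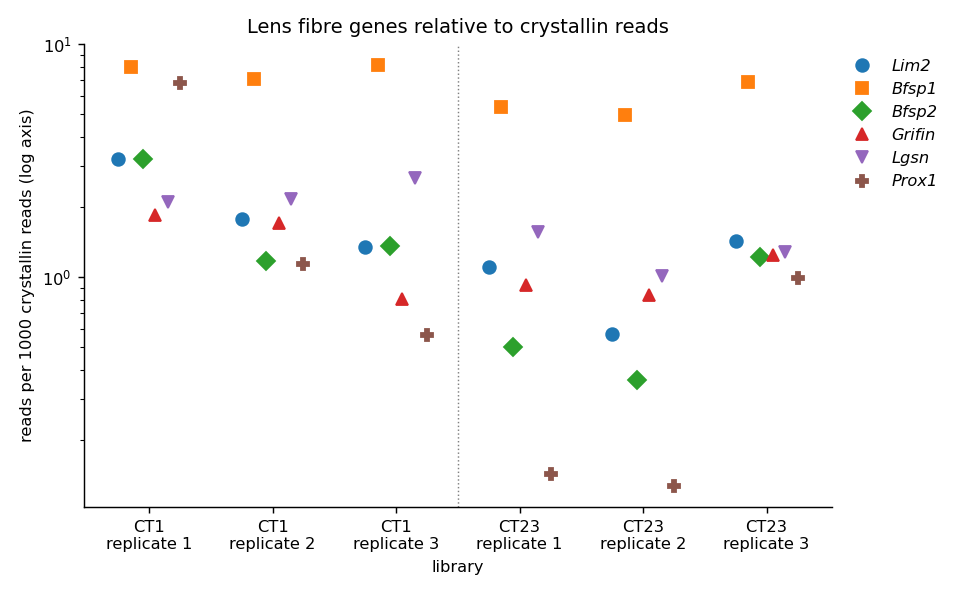
Reads of each member per 1000 crystallin reads of the same library, on a log axis, with the CT1 libraries left of the dotted line. Bfsp1 stays between 4.96 and 8.12, while Prox1 spans 0.127 to 6.81.

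Libraries of the same time differed in the makeup of their lens reads, as a pair from each time shows. These pairs were chosen after the values were seen because their crystallin sums were the closest of their time. The sums were 19281 and 14818 CPM in CT1 replicates 3 and 2, and 197580 and 179675 CPM in CT23 replicates 1 and 2. The CPM ratios are not scaled to these sums. The intervals (95%, exact Clopper-Pearson on reads) cover counting error only and compare libraries, not conditions. CT1 replicate 3 over CT1 replicate 2 gave CPM ratios of 1.60 for Lgsn (1.41 to 1.81), 1.51 for Bfsp2 (1.27 to 1.79) and 1.49 for Bfsp1 (1.39 to 1.60). The ratio was 0.610 for Grifin (0.510 to 0.728) and 0.648 for Prox1 (0.521 to 0.803), and 0.985 for Lim2 (0.845 to 1.15). Members thus differed in both directions between these 2 libraries, and so did the crystallins. Crygb, Crygc, Crygd, Cryge and Crygf had ratios of 1.58 to 1.78, while Crybb1, Crybb3, Cryaa, Cryab and Crygn had ratios of 0.528 to 0.815.

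CT23 replicate 1 over CT23 replicate 2 gave ratios above 1 in all 6 members, with every interval above 1. Lim2 had 2.14 (2.00 to 2.28), Lgsn 1.69 (1.60 to 1.78), Bfsp2 1.52 (1.39 to 1.66), Prox1 1.24 (1.06 to 1.45), Grifin 1.21 (1.14 to 1.28) and Bfsp1 1.19 (1.17 to 1.22). The intervals of 10 crystallins lay above 1 and those of 4 below it, Cryaa (0.777), Cryba2 (0.845), Crybb2 (0.735) and Crygs (0.896). In CPM, Lim2 was therefore level in the CT1 pair and far apart in the CT23 pair, and Grifin was on opposite sides of 1 in the pairs.

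**Figure D4:**
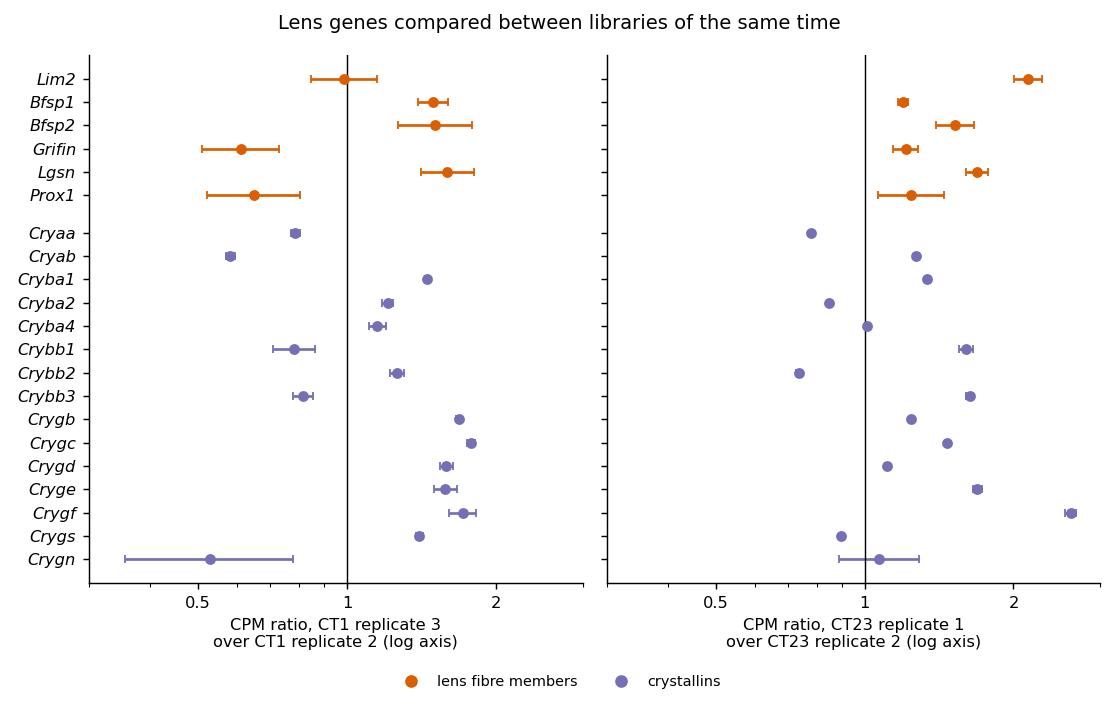
CPM ratios between libraries of the same time, on a log axis, with 95% exact intervals that cover counting error only. In the left panel (CT1 replicate 3 over CT1 replicate 2) Grifin and Prox1 lie below 1 and Bfsp1, Bfsp2 and Lgsn above it. In the right panel (CT23 replicate 1 over CT23 replicate 2) all 6 members lie above 1.

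Crystallins were among the 3 most similar profiles of each member but Prox1. Likeness was the mean absolute difference between profiles of log2(CPM + 1), each centred on its own mean over the 6 libraries, among the 11342 genes tested. Lgsn was nearest to Cryge (0.0712) and Crygf (0.138), both gamma crystallins. Grifin was nearest to Crybb1 (0.190) and Crybb3 (0.205), both beta crystallins. Bfsp1 lay near Crybb2 (0.235), Cryge (0.246) and Crygb (0.250).

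Lim2 was nearest to Gm26847 (0.305), followed by Cryge (0.394) and Crybb3 (0.411). Cryge was thus among the nearest 3 of Lim2, Bfsp1 and Lgsn, and Crybb3 and Gm26847 among those of both Lim2 and Grifin. Gm26847 was at 3.55, 14.8 and 8.81 CPM in CT1 replicates 1, 2 and 3, and at 169, 76.7 and 22.8 CPM in CT23 replicates 1, 2 and 3. Bfsp2 was nearest to Hey1 (0.317), a transcriptional repressor of the Notch pathway, and to Cryab (0.340), a small heat shock protein that tissues outside the lens also express. Palm2 (0.356) came next for Bfsp2. The nearest profiles to the mean of the 6 members were Cryab, Gm26847, Cryge, Rspo1, a Wnt pathway agonist, and Crybb3, at 0.368 to 0.475.

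Prox1 had no crystallin among its nearest genes. The profiles were not scaled, so genes of unlike span lie far apart whatever their shape. Prox1 spanned 2.59 times from lowest to highest library, and the crystallins 6.09 to 234 times. Those were Rax (0.0501), a homeobox gene of the retina, Dpf3 (0.0543), a chromatin remodelling subunit, and Gnb5 (0.0608), a G protein beta subunit of retinal neurons. The profile of Prox1 differed from those of the other members by 0.848 (Bfsp2) to 1.46 (Lgsn), where those 5 differed from each other by 0.286 (Bfsp1 and Lgsn) to 0.664 (Bfsp2 and Grifin). Rax was at 5.29, 5.39 and 3.33 CPM in CT1 replicates 1, 2 and 3, and at 9.60, 6.84 and 7.33 CPM in CT23 replicates 1, 2 and 3, so CT1 replicate 3 was lowest as for Prox1.

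Rod photoreceptor markers were lower at CT1 as Prox1 was. The 8 rod markers summed to 632, 643 and 598 CPM in CT1 replicates 1, 2 and 3, and to 1052, 868 and 885 CPM in CT23 replicates 1, 2 and 3. Prox1 was at 25.1, 26.1 and 18.2 CPM per 1000 CPM of rod markers in CT1 replicates 1, 2 and 3, and at 26.8, 26.2 and 26.2 in CT23 replicates 1, 2 and 3, so CT1 replicate 3 alone stood apart on this measure. Bfsp1, for comparison, ranged from 29.4 to 262 at CT1 and from 182 to 1026 at CT23 on the same measure.

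Summed markers of the retinal cell types known to express Prox1 either separated the times in the same direction or overlapped. Müller glia markers summed to 198 to 223 CPM at CT1 and 244 to 259 CPM at CT23 over 4 of 4 genes. Horizontal cell markers (3 of 4 in the table) summed to 1.85 to 2.54 CPM at CT1 and 2.64 to 3.30 CPM at CT23. Onecut2, the highest of them, overlapped between the times, at 0.963 to 1.74 CPM at CT1 and 1.17 to 2.05 CPM at CT23. Lhx1 and Calb1 did not overlap, but had only 2 to 6 and 6 to 15 reads in a library. Bipolar markers (5 of 5) summed to 89.6 to 118 CPM at CT1 and 109 to 130 CPM at CT23, and amacrine markers (5 of 5) to 30.2 to 34.9 CPM at CT1 and 33.3 to 36.4 CPM at CT23, both overlapping. The bipolar and amacrine sums were mostly Trpm1 and Tfap2b, which other cells of the eye also express. The Müller glia sum was mostly Glul, at 187 to 209 CPM at CT1 and 228 to 236 CPM at CT23. Of its other genes, Slc1a3 did not overlap between the times, and Aqp4 and Kcnj10 did. Lymphatic endothelium markers (3 of 4) had their highest sum at CT1, at 32.2 to 36.1 CPM at CT1 and 21.05 to 33.3 CPM at CT23, and CT23 replicates 2 and 3 lay below every CT1 library. That sum was mostly Pdpn, at 28.5 to 33.2 CPM at CT1 and 18.5 to 30.2 CPM at CT23. None of the markers in the table was at 0 in any library. The part of retinal RNA in the Prox1 result was not tested.

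**Figure D5:**
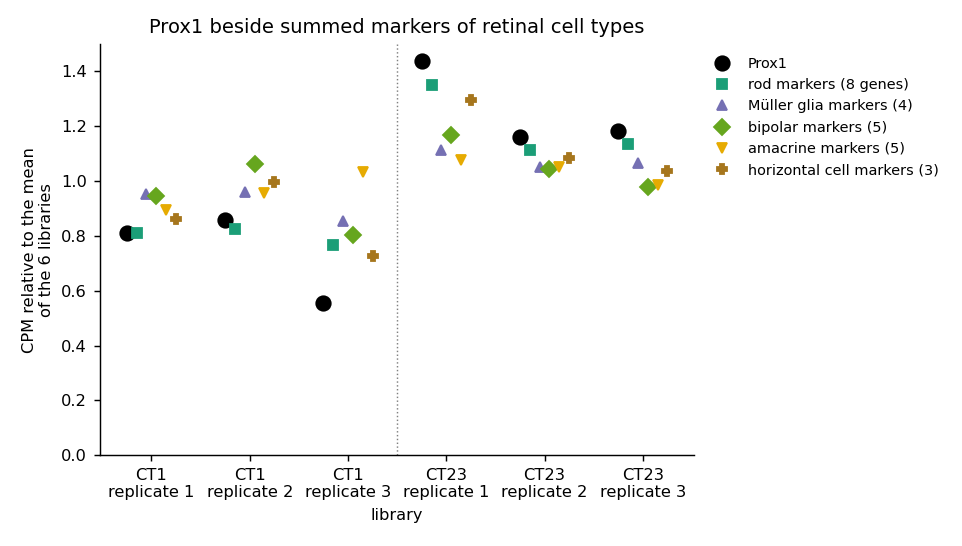
CPM of Prox1 and summed CPM of retinal marker lists in each library, each divided by its mean over the 6 libraries, with the CT1 libraries left of the dotted line. Prox1 and the rod sum are lower in all 3 CT1 libraries than in all 3 CT23 libraries, and Prox1 is lowest in CT1 replicate 3, at 10.9 CPM.

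Marker sums of ocular surface epithelium, skeletal muscle and fibroblasts were not lower at CT1 as the lens fibre members were. Ocular surface epithelium markers summed to 1119 to 1844 CPM at CT1 and 641 to 1431 CPM at CT23, and were highest in CT1 replicate 1, where Lim2, Bfsp1, Bfsp2, Grifin and Lgsn were lowest. Skeletal muscle markers (5 of 7 in the table) summed to 78.3, 281 and 223 CPM in CT1 replicates 1, 2 and 3. In CT23 replicates 1, 2 and 3 they summed to 70.8, 70.9 and 21.2 CPM. Within each time that sum was lowest in CT1 replicate 1 and CT23 replicate 3, as Lim2, Bfsp1, Bfsp2, Grifin and Lgsn were. Fibroblast markers summed to 968 to 1827 CPM at CT1 and 729 to 884 CPM at CT23. The part of any of these tissues in the lens results was not tested.

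Other genes of the lens were read in the same fit, in lists set by role, and none passed limma's test. The 15 crystallins tested were all lower at CT1 at an unadjusted limma p under 0.05, where 12.4% of all genes tested were, with a median log2 fold of -3.17. Crygn had a limma adjusted p of 0.0736, and Crybb1, Cryab and Crybb3 had 0.0853 to 0.103. DESeq2 called 11 of the 15, against 1.5% of all genes lower, and limma with crystallin reads out of the totals called 8, against 3.11%. The span from lowest to highest library was 6.09 times for Crygn to 234 times for Cryba4, and 10 of 15 had every CT1 library below every CT23 library, as 16.3% of all genes did. Without CT23 replicates 1 and 2 all 15 still had negative folds, with a median of -1.44, but only Crygn was at an unadjusted limma p under 0.05, where 3.96% of all genes were lower.

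Of the fibre junction and membrane genes 5 of 7 were tested, with 2 lower and 0 higher at an unadjusted limma p under 0.05 and a median log2 fold of -0.35. Cdh2, which encodes N-cadherin, was at 2.19, 2.78 and 1.55 CPM in CT1 replicates 1, 2 and 3, and at 5.20, 3.99 and 3.52 CPM in CT23 replicates 1, 2 and 3 (log2 fold -0.73, SE 0.183, limma adjusted p = 0.0973). Its times did not overlap, and Epha2 and Efna5, an ephrin receptor and an ephrin, had -0.35 and 0.23.

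Vimentin, the other intermediate filament protein of lens fibres beside the beaded filament pair, was lower at CT1 without passing. Vim was at 72.4, 79.9 and 85.6 CPM in CT1 replicates 1, 2 and 3, and at 148, 117 and 109 CPM in CT23 replicates 1, 2 and 3 (log2 fold -0.64, SE 0.141, limma adjusted p = 0.0779). Müller glia, endothelium and fibroblasts also express it. Of the filament partners and membrane skeleton genes 6 of 8 were tested, with 2 lower and 0 higher at an unadjusted p under 0.05 and a median of 0.14. Sptan1, a spectrin, was at -0.29, and the plakins Ppl and Evpl, which surface epithelia express, were at 0.58 and 0.64.

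Of the lens transcription factors 8 of 13 were tested, and all 8 had negative folds, 4 of them at an unadjusted limma p under 0.05, with a median of -0.21. Maf, the factor whose core element was searched for above, was at 90.9, 115 and 94.4 CPM in CT1 replicates 1, 2 and 3, and at 195, 146 and 123 CPM in CT23 replicates 1, 2 and 3 (log2 fold -0.60, SE 0.183, limma adjusted p = 0.127). Its span was far smaller than that of Lim2, Bfsp1 or Lgsn. Sox2, Mab21l1 and Meis2 had log2 folds of -0.64, -0.86 and -0.25. Sox2 had only 3 to 24 reads in a library and Mab21l1 13 to 76.

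Genes of fibre differentiation and organelle loss (9 of 13 tested) had 1 lower and 1 higher at an unadjusted limma p under 0.05 and a median of 0.061. The lower one, Tdrd7, an RNA granule protein needed for a clear lens, was at 8.84, 12.3 and 7.11 CPM in CT1 replicates 1, 2 and 3, and at 25.8, 15.5 and 12.8 CPM in CT23 replicates 1, 2 and 3 (log2 fold -0.84). Hopx, the higher one, had a log2 fold of 0.28, and Caprin2 and Fgfr2 had -0.33 and 0.13. Of the lens capsule list, basement membrane genes that vessels also express, 10 of 11 were tested and 7 had negative folds, with a median of -0.19. Of these, 3 had an unadjusted limma p under 0.05, Col4a1, Col4a2 and Nid1, with log2 folds of -1.22, -0.72 and -0.58, and Col4a6 was at -0.33. The unadjusted counts of these lists are to be read against the 12.4% of all genes that were lower, and 1 of 9 in the differentiation list lay near that share. Limma with crystallin reads out of the totals called 2 junction genes, 1 filament partner, 1 differentiation gene, 2 capsule genes and 0 transcription factors, where it called 3.11% of all genes lower.

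Without CT23 replicates 1 and 2, limma called 0 genes of these lists. The median log2 fold was then -0.50 for the junction list, 0.061 for the filament partners, -0.25 for the transcription factors (7 tested), 0.013 for the differentiation list and -0.18 for the capsule list. Vim was at -0.46, Maf at -0.31, Tdrd7 at -0.44, Cdh2 at -0.53 and Col4a1 at -0.78.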

How the data were processed

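RNA of 6 RPE-enriched libraries was grouped by the time point in the labels. RPE was freed by brief sonication and sequenced with a QuantSeq 3′ kit, per the labels' protocols. The submitters' processing notes name HTSeq, Bowtie2 2.1.0, edgeR 3.24.1 and the build mm10 without their roles. The deposited table held CPM, with the authors' log2 fold and p-value per gene, per the file headers. In 100% of values the authors' CPM came to whole reads (tolerance 0.01 of a read), and each total was worked out from that step. The sources used here do not say what the totals count. A limit of 3 reads came to 0.220 to 0.238 CPM. Of 14083 entries, 75 named no gene (0.0432% to 0.102% of listed reads) and were left out.

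The main test was limma 3.58.1 with a trend on log2(CPM + 1) over the 11342 genes whose mean reached 1 CPM, time as the only factor, two-sided, with Benjamini-Hochberg adjustment at 0.05. Folds on this scale understate the change of low genes. Alternatives were edgeR 4.0.16 and DESeq2 1.42.0 on the recovered counts, which the authors had deposited as CPM, other pseudocounts, filters and scalings, a replicate block and left-out libraries. DESeq2 gave an adjusted p to 5405 genes. The fits were checked on simulated data. Members, lists and alternatives were chosen with earlier results of these data known. The text names all members, up to 4 genes with the smallest limma p of each lens list, marker sums with up to 2 leading genes, and the nearest profiles (3 per member, 5 for their mean); some of these are not described further, and 1 gene is not reported here, and others are named for comparison after their values were seen. Replicates are pooled samples, so p-values rest on the spread between these libraries. Limma also draws the variance of each gene toward the trend over all genes. The limma SE of each member is therefore smaller than its own libraries alone would give, and its p-value rests partly on other genes. No library was a copy of another of its time (chi-square per gene 5.17 to 147). Sequences came from RefSeq windows in GRCm38.p6, with matches for all 6 members.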

Additional observations from a re-analysis of the deposited data

How the results depend on the processing

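All 6 members kept a negative log2 fold under each of the 16 alternatives. The lowest and highest were -3.03 and -0.90 for Lim2, -3.82 and -1.23 for Bfsp1, -2.32 and -0.87 for Bfsp2, -3.66 and -1.19 for Grifin, -3.45 and -0.50 for Lgsn, and -0.93 and -0.56 for Prox1. Their median was -0.89 without CT23 replicates 1 and 2, against -2.40 with all libraries, and -3.24 to -1.65 with 1 library left out. No alternative that leaves out a library called a member. The count of genes called, 0 of 11342 with limma, was 98 of 4723 when the mean had to reach 5 CPM. It was 138 of the 5405 genes with an adjusted p with DESeq2, and 360 of 11342 with crystallin reads out of the totals. With 1 library left out it was 0 to 4 (4 of 11352 without CT23 replicate 3). The counts of members and lists below are to be read against these counts over all genes. Members called numbered 1 with DESeq2 and 5 with crystallin reads out of the totals. Crystallins called numbered 1 with that filter at 5 CPM, 11 with DESeq2, 8 with crystallin reads out of the totals and 0 to 1 with 1 library left out, the 1 being without CT23 replicate 3. Fibre junction genes called numbered 1 with that filter at 5 CPM, 1 with DESeq2, 2 with crystallin reads out of the totals and 0 to 1 with 1 library left out, the 1 again without CT23 replicate 3. Called filament partners numbered 1 with DESeq2 and 1 with crystallin reads out of the totals, differentiation genes 1 and 1, and capsule genes 2 and 2. The cause was not tested. The labels give the times the same replicate numbers. Same-numbered libraries had correlations of deviations from their group means of -0.255, 0.383 and -0.0418, and 2 of 6 libraries lay closest to their own number. With 3 libraries per time, these values cannot decide whether the numbers pair the libraries. With a replicate block limma called 0 genes and 0 members, and the median log2 fold of the members was -2.40. Depth limits little here, since the fewest reads of a member in a library were 57 (Grifin in CT1 replicate 1).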
